A study of Mus musculus with 34 samples.

Results

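The genes followed here code for proteins of the lipid droplet and of cholesteryl ester turnover: Plin2, Plin3, Hilpda, Soat1, Nceh1, Lipa, Dgat1, Dgat2, Pnpla2 and Mgll. They were taken by symbol from the deposited count tables, where they are 10 of 52550 rows of the main set and 10 of 25498 rows of a second set labelled batch 1. All 10 had enough counts to be tested in both sets. The cells were mouse bone marrow-derived macrophages (donor age 10 to 14 weeks), grown from whole marrow for 6 days with 10 ng/ml M-CSF, the growth factor that turns marrow precursors into macrophages. After 24 h of rest they received low-density lipoprotein (LDL) at 200 mg/dL, or the vehicle alone (labelled ctl), for 24 h. All mice carried Vav-Cre, a recombinase made in blood-forming cells, and WT mice carried it alone. Dnmt3aKO mice were also Dnmt3afl/fl, Tet2KO mice were also Tet2fl/fl, and Jak2VF mice had the Jak2V617F/WT genotype. Dnmt3a and Tet2 code for enzymes that add and oxidise DNA methyl groups, and Jak2V617F is an overactive form of a cytokine receptor kinase; mutations of all 3 genes occur in blood cell clones that expand with age. In the main set each of these 8 groups had 3 libraries, 24 in all. Batch 1 covered WT and Tet2KO in 10 libraries, with vehicle in 3 and LDL in 2 for each genotype. The labels do not say whether replicates came from separate mice or cultures, so p-values measure the spread between these libraries, which may be technical.

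Macrophages take up lipoproteins into lysosomes, where their cholesteryl esters are cut to free cholesterol. Surplus cholesterol and fatty acids are esterified again at the endoplasmic reticulum and stored in lipid droplets, whose surface carries perilipins. Cytosolic hydrolases release the stored lipid, and a macrophage full of such droplets is the foam cell of the atherosclerotic plaque.

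The droplet surface genes were Plin2 (ENSMUSG00000028494, GRCm38 chr4:86648386-86670060, minus strand), which codes for the main perilipin of macrophages, Plin3 (ENSMUSG00000024197, chr17:56277476-56292873, minus strand), a perilipin that also occurs free in the cytosol, and Hilpda (ENSMUSG00000043421, chr6:29272488-29275446, plus strand), an inhibitor of the lipase made by Pnpla2. The esterifying enzymes were Soat1 (ENSMUSG00000026600, chr1:156424525-156474331, minus strand), which makes cholesteryl esters, and Dgat1 (ENSMUSG00000022555, chr15:76502015-76511953, minus strand) and Dgat2 (ENSMUSG00000030747, chr7:99153658-99182719, minus strand), which make triglycerides. The hydrolases were Lipa (ENSMUSG00000024781, chr19:34492318-34527474, minus strand), the lysosomal acid lipase, Nceh1 (ENSMUSG00000027698, chr3:27182965-27284608, plus strand), a neutral cholesteryl ester hydrolase, Pnpla2 (ENSMUSG00000025509, chr7:141455198-141460743, plus strand), the adipose triglyceride lipase, and Mgll (ENSMUSG00000033174, chr6:88724412-88828360, plus strand), the monoglyceride lipase that ends the breakdown of triglycerides. Exons of Mgll overlap those of the antisense gene Gm26588, and whether the counting used strand is not given in the sources used here; Gm26588 itself had 0 to 0.134 CPM (counts scaled to a common library size) in the main set.

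Start-site sequences are shown for the members with the largest LDL responses in WT, Plin2, Hilpda and Mgll. A start window of each of the 3 holds the letters ACGTG, the core bound by hypoxia-inducible factors. They are RefSeq sequences in GRCm38.p6, printed 5′ to 3′ on the gene's strand, with each match to ACGTG on either strand in capitals. CACGTG, the E-box, holds ACGTG on both strands.
Plin2, chr4:86670030-86670309, minus strand: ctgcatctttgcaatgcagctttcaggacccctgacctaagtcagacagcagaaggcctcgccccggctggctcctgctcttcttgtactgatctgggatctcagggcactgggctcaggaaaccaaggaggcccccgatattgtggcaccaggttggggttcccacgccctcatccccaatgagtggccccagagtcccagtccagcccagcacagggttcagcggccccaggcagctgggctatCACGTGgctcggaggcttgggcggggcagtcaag
Mgll, chr6:88724162-88724441, plus strand: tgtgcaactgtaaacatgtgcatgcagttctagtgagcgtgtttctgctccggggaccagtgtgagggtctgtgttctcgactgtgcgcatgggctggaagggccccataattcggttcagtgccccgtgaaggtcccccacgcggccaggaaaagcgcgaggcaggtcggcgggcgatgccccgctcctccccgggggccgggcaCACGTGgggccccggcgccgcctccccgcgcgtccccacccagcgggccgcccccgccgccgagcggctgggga
Hilpda, chr6:29272571-29272600, plus strand: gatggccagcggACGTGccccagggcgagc
The Plin2 and Mgll sequences run from 250 bases before the start of transcription to 30 after it. The Hilpda sequence is the 30 bases around the match before the second of its annotated starts. These bases lie inside the Hilpda gene as annotated, and the window of the first Hilpda start held no match. Mgll had a second start window, not shown, with a match at -158 from that start. In windows of 280 bases, ACGTG was present in 4 of the 8 members with an entry, the other being Nceh1, and in 18.5% of 32851 RefSeq start windows. CACGTG was present in Plin2, Nceh1 and Mgll, and in 6.79% of all windows. Of the other motifs searched on both strands, AGGTCA, the half-site of nuclear receptors, was present in Plin2 and in 15.3% of all windows, and TGACNNNGC, the antioxidant response core, in Soat1 and in 11.5%. The DR1 element, a direct repeat of that half-site with 1 base between, was present in none of the 8 and in 0.0365% of all windows. A member with several starts was searched at each of them. A match is a description of the letters, and Dgat1 and Dgat2 were not analysed here.

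The libraries held 24105237 to 43904761 counts in the main set and 15171143 to 44449473 in batch 1. Summed macrophage markers (10 of 10 detected) reached 19503 to 33890 CPM in the main set and 22948 to 35024 in batch 1. Their sums did not overlap between Dnmt3aKO and WT with vehicle (32090 to 33890 against 23245 to 29221), between Jak2VF and WT with LDL (19503 to 22871 against 24427 to 32427), and between Tet2KO and WT with vehicle in batch 1 (22948 to 28488 against 30848 to 31975). Dnmt3a was at 32.6 to 36.6 CPM in Dnmt3aKO and at 54.6 to 71.2 in WT with vehicle. Tet2 over the whole gene was at 32.8 to 38.6 CPM in Tet2KO and 19.9 to 32.2 in WT with vehicle in the main set, and at 16.8 to 24.3 and 24.1 to 27.9 in batch 1, and the total of a gene does not check the loss of single exons. Summed stromal markers (8 of 8 detected, collagens among them) were high in the main set, at 12222 to 18379 CPM with vehicle and 8694 to 13452 with LDL, and were at 477 to 847 CPM in 8 batch 1 libraries but 3791 and 3527 in Tet2KO vehicle replicate 3 and Tet2KO LDL replicate 2. Summed neutrophil markers (12 of 12 detected) with vehicle were at 233 to 292 CPM in WT, 760 to 818 in Dnmt3aKO, 120 to 167 in Tet2KO and 591 to 767 in Jak2VF, and with LDL at 321 to 405, 851 to 934, 200 to 233 and 470 to 517. Summed adipocyte markers (8 of 8 detected) were at 0.613 to 1.36 CPM in 22 libraries of the main set, and at 5.27 and 6.58 in Dnmt3aKO LDL replicates 1 and 2. Gfap, an astrocyte gene, was at 2.72 CPM in WT LDL replicate 3 and 4.26 in Tet2KO LDL replicate 3, against at most 0.714 in the other libraries of the main set. The summed brain markers (8 of 8 detected) did not stand apart in these libraries, at 108 and 122 CPM in a range of 73.2 to 122 over the main set. Summed hepatocyte markers were at 7.06 CPM in Tet2KO vehicle replicate 2 and at 0.426 to 3.17 in the other libraries of the main set. The part of these transcripts in the results was not tested, except where a value without a library is given. In bulk RNA, fewer cells of a type and less RNA per cell cannot be told apart.

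Levels are given as CPM scaled for library composition and, between genes, as CPM per kilobase of exon. By mean CPM per kilobase in WT cells with vehicle, Plin2 stood first at 173, ahead of Lipa at 73.2, Nceh1 at 41.1, Soat1 at 30.9, Hilpda at 27.9, Plin3 at 20.6 and Pnpla2 at 15.3. The triglyceride-forming Dgat1 at 7.03 and Dgat2 at 1.57, and Mgll at 1.17, were the lowest. With LDL, Plin2 was at 471 and Hilpda at 141 CPM per kilobase in WT.

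**Figure D1:**
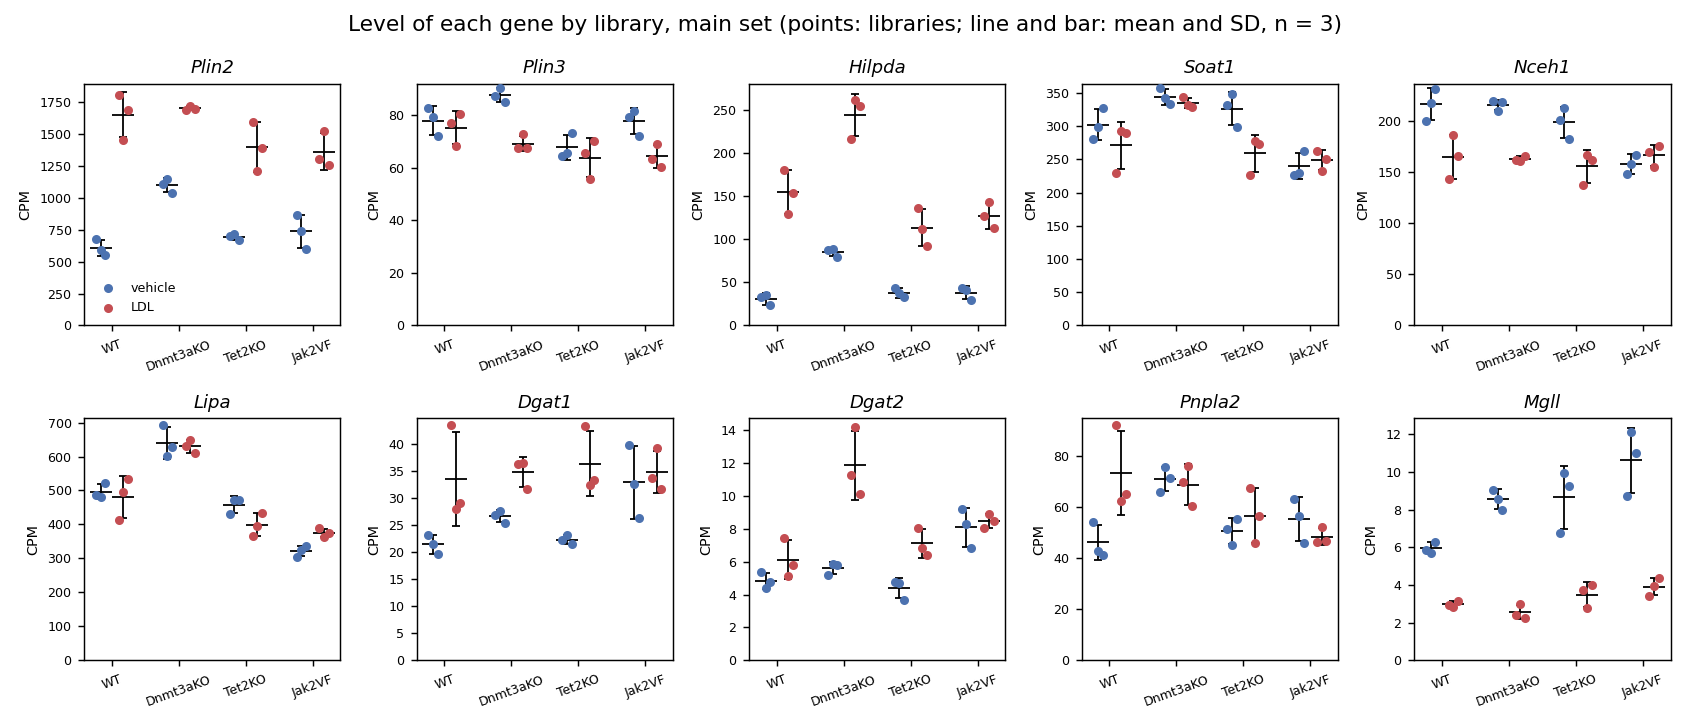
CPM of each of the 10 genes in the 24 libraries of the main set, by genotype, with vehicle and LDL side by side; points are libraries, the line and bar the mean and SD (n = 3). Plin2 and Hilpda were higher and Mgll lower with LDL in every genotype, with no overlap between the 3 vehicle and the 3 LDL libraries of a genotype.

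The first comparison asked how 24 h of LDL changed these genes in each genotype. In all 4 genotypes, LDL raised Plin2 and Hilpda and lowered Mgll. In WT macrophages 4 of the 10 genes rose and 2 fell, while 6.67% of the 19444 genes tested rose and 7.58% fell. In Dnmt3aKO 3 rose and 3 fell, against 6.41% and 8.96% of all genes. In Tet2KO 4 rose and 3 fell, against 8.59% and 8.21%, and in Jak2VF 2 rose and 2 fell, against 8.44% and 9.72%. With library totals in place of composition scaling, genes that rose were 38.8% of those called in Tet2KO, against 51.1%. These counts come from edgeR's quasi-likelihood test at an adjusted p under 0.05, as do all adjusted p-values below unless another test is named. Benjamini-Hochberg adjustment was over all genes tested. Where libraries are said not to overlap, the share of all genes without such overlap is not given, so this adds nothing to the calls. The median log2 fold change of the 10 genes was 0.15 in WT, -0.03 in Dnmt3aKO, 0.04 in Tet2KO and 0.07 in Jak2VF, beside 0.00, -0.02, -0.00 and -0.02 over all genes.

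Plin2 was the most abundant member and rose with LDL in every genotype. In WT it was at 679, 594 and 550 CPM with vehicle and at 1809, 1458 and 1693 with LDL, a log2 fold change of 1.44 ± 0.13 (SE; adjusted p = 3.8e-08), or 2.72-fold. In Dnmt3aKO it was at 1113, 1149 and 1038 CPM with vehicle and 1691, 1725 and 1698 with LDL, a log2 fold change of 0.63 ± 0.12 (adjusted p = 8.3e-04). The LDL levels of WT and Dnmt3aKO overlapped, while every Dnmt3aKO vehicle library lay above every other vehicle library of the main set. In Tet2KO, 700, 720 and 669 CPM with vehicle stood against 1599, 1211 and 1390 with LDL, a log2 fold change of 1.01 ± 0.12 (adjusted p = 4.5e-06). In Jak2VF, 868, 740 and 603 CPM stood against 1303, 1527 and 1257, a log2 fold change of 0.89 ± 0.12 (adjusted p = 2.4e-05). By group mean the order was Dnmt3aKO, WT, Tet2KO and Jak2VF with LDL, each overlapping the next, then Dnmt3aKO with vehicle apart from both neighbours, then Jak2VF, Tet2KO and WT with vehicle, each overlapping the next.

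Hilpda, named for its induction by hypoxia, had the largest fold rise of the 10 genes in WT, Dnmt3aKO, Tet2KO and Jak2VF alike. In WT it went from 33.3, 35.8 and 23.2 CPM with vehicle to 181, 130 and 154 with LDL, a log2 fold change of 2.33 ± 0.18 (adjusted p = 7.5e-09), or 5.04-fold. In Dnmt3aKO it went from 88.0, 88.9 and 79.9 CPM to 217, 262 and 255, a log2 fold change of 1.52 ± 0.17 (adjusted p = 1.5e-06). The Dnmt3aKO vehicle level was below every LDL library and above every other vehicle library of the main set. In Tet2KO it went from 44.1, 37.2 and 32.9 CPM to 136, 112 and 92.7, a log2 fold change of 1.57 ± 0.18 (adjusted p = 1.2e-06). In Jak2VF it went from 43.9, 40.7 and 29.9 CPM to 127, 143 and 113, a log2 fold change of 1.74 ± 0.18 (adjusted p = 3.7e-07). Vehicle and LDL libraries did not overlap in any genotype.

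Plin3 did not share the rise of Plin2. It was at 87.3, 90.2 and 85.1 CPM with vehicle and 67.4, 72.6 and 67.5 with LDL in Dnmt3aKO, where it fell by 0.34 ± 0.09 on the log2 scale (adjusted p = 0.0115). In Jak2VF it was at 79.4, 81.5 and 72.1 CPM with vehicle and 63.3, 69.1 and 60.3 with LDL, and fell by 0.27 ± 0.09 (adjusted p = 0.0397). Both falls were small, and both calls rested on single libraries. The Dnmt3aKO call was lost without vehicle replicate 2, LDL replicate 1 or LDL replicate 3 (adjusted p = 0.0607, 0.0575 and 0.0625), and without both LDL libraries with adipocyte transcripts (adjusted p = 0.134), which left 1 LDL library, taken to vary as the other groups do. The Jak2VF call was lost without vehicle replicate 1 or 2 (adjusted p = 0.0956 and 0.120) or LDL replicate 1 or 3 (0.125 and 0.161). The log2 fold change was -0.05, with a 95% interval of -0.24 to 0.14, in WT, and -0.09, with an interval of -0.28 to 0.10, in Tet2KO, where vehicle and LDL libraries overlapped.

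Soat1, the enzyme that makes cholesteryl esters in macrophages, varied little with LDL. In WT it was at 281, 298 and 327 CPM with vehicle and 230, 293 and 290 with LDL, with a log2 fold change of -0.16 and an interval of -0.36 to 0.05. In Tet2KO it was at 331, 348 and 299 CPM with vehicle and 227, 277 and 273 with LDL and fell by 0.33 ± 0.10 (adjusted p = 0.0242). That call was lost without vehicle replicate 1 or 2 (adjusted p = 0.0697 and 0.112) or LDL replicate 1 (0.145), and with no filter on low counts (0.0543). The intervals in Dnmt3aKO (-0.24 to 0.17) and Jak2VF (-0.16 to 0.25) held 0.

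The triglyceride-forming enzymes rose in some genotypes. Dgat1 was at 23.2, 21.5 and 19.7 CPM in WT with vehicle and at 43.6, 28.0 and 29.1 with LDL, a log2 fold change of 0.64 ± 0.16 (adjusted p = 0.00684). WT LDL replicate 1 stood above the other 2, and without it the value was 0.42 (adjusted p = 0.0731). In Tet2KO Dgat1 was at 22.2, 23.2 and 21.5 CPM with vehicle and at 43.4, 32.5 and 33.3 with LDL, a log2 fold change of 0.71 ± 0.16 (adjusted p = 0.00311). In Dnmt3aKO the libraries did not overlap either (25.5 to 27.6 against 31.7 to 36.6 CPM), but the log2 fold change of 0.39 ± 0.16 was not called (adjusted p = 0.111). It was called with only the groups compared in the fit (0.40, adjusted p = 0.00169) and with the title number as replicate block (0.38, adjusted p = 0.0410). With only the groups compared, the WT call of Dgat1 was lost (0.65, adjusted p = 0.0703). Calls of other members lost in that fit are named in the closing section. In Jak2VF, where the vehicle libraries already ran from 26.3 to 39.9 CPM, the log2 fold change was 0.08, with an interval of -0.24 to 0.41.

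Dgat2, the second triglyceride-forming enzyme, was scarce in these cells. In Dnmt3aKO it was at 5.21, 5.84 and 5.77 CPM with vehicle and 11.3, 14.2 and 10.1 with LDL, a log2 fold change of 1.08 ± 0.15 (adjusted p = 2.2e-05). In the same LDL libraries, replicates 1, 2 and 3, the summed adipocyte markers were at 5.27, 6.58 and 1.34 CPM. The part of the adipocyte transcripts in the rise of Dgat2 was not tested. In Tet2KO Dgat2 was at 4.75, 4.72 and 3.68 CPM with vehicle and 8.08, 6.82 and 6.43 with LDL, a log2 fold change of 0.70 ± 0.16 (adjusted p = 0.00336). The values were 0.34 in WT (adjusted p = 0.166) and 0.07 in Jak2VF (interval -0.24 to 0.38), and neither was called.

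Among the hydrolases Mgll fell in every genotype. In WT it was at 5.87, 5.68 and 6.29 CPM with vehicle and 2.92, 2.84 and 3.15 with LDL, and fell by 1.00 ± 0.16 on the log2 scale (adjusted p = 1.4e-04), or 2.00-fold. In Dnmt3aKO it was at 9.05, 8.57 and 7.99 CPM with vehicle and 2.42, 3.00 and 2.26 with LDL, a log2 fold change of -1.73 ± 0.17 (adjusted p = 1.4e-07), or 3.32-fold lower. All vehicle libraries of the main set lay above all LDL libraries for this gene. In Tet2KO it was at 6.77, 9.92 and 9.27 CPM with vehicle and 3.71, 2.76 and 3.99 with LDL, a log2 fold change of -1.31 ± 0.16 (adjusted p = 4.9e-06). In Jak2VF it was at 8.72, 12.1 and 11.0 CPM with vehicle and 3.41, 3.96 and 4.34 with LDL, a log2 fold change of -1.44 ± 0.16 (adjusted p = 1.1e-06). The summed stromal markers were also lower with LDL, without overlap between treatments, in Dnmt3aKO, Tet2KO and Jak2VF. In WT they overlapped, at 12222 to 13299 CPM with vehicle and 10113 to 12310 with LDL. Their part in the fall of Mgll was not tested.

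Nceh1, the neutral cholesteryl ester hydrolase, fell in WT, Dnmt3aKO and Tet2KO by similar amounts. It was at 200, 217 and 231 CPM in WT with vehicle and 143, 186 and 166 with LDL (log2 fold change -0.39 ± 0.09, adjusted p = 0.00575). It was at 219, 210 and 218 CPM in Dnmt3aKO with vehicle and 162, 161 and 166 with LDL (-0.40 ± 0.09, adjusted p = 0.00426). The WT call was lost without LDL replicate 1 (-0.29, adjusted p = 0.0516), and the Dnmt3aKO call without both LDL libraries with adipocyte transcripts (-0.36, adjusted p = 0.161), which left 1 LDL library. In Tet2KO Nceh1 was at 201, 212 and 182 CPM with vehicle and 137, 167 and 162 with LDL (-0.36 ± 0.09, adjusted p = 0.0107), and the call was lost without vehicle replicate 2 (0.0621) or LDL replicate 1 (0.0757). In Jak2VF the vehicle libraries, at 148, 158 and 167 CPM, were already in the range of the LDL libraries, at 169, 155 and 175, and the log2 fold change was 0.08 with an interval of -0.12 to 0.27.

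Pnpla2, which starts the breakdown of triglycerides, rose in WT. It was at 54.2, 43.0 and 41.4 CPM with vehicle and 92.2, 62.6 and 65.3 with LDL, a log2 fold change of 0.67 ± 0.16 (adjusted p = 0.00509). WT LDL replicate 1 was again the highest library, and without it the value was 0.48 (adjusted p = 0.0505). The log2 fold changes in Dnmt3aKO (-0.05, interval -0.37 to 0.28), Tet2KO (0.16, interval -0.17 to 0.49) and Jak2VF (-0.19, interval -0.52 to 0.14) were not called, and vehicle and LDL libraries overlapped in each.

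Lipa, the lysosomal acid lipase, was not called for LDL in any genotype of the main set. It was at 487, 481 and 521 CPM in WT with vehicle and 412, 496 and 535 with LDL, with a log2 fold change of -0.05 and an interval of -0.23 to 0.14. The values furthest from 0 were -0.20 in Tet2KO (adjusted p = 0.132) and 0.22 in Jak2VF (adjusted p = 0.0862), where LDL libraries at 388, 363 and 375 CPM lay above vehicle libraries at 305, 324 and 336.

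**Figure D2:**
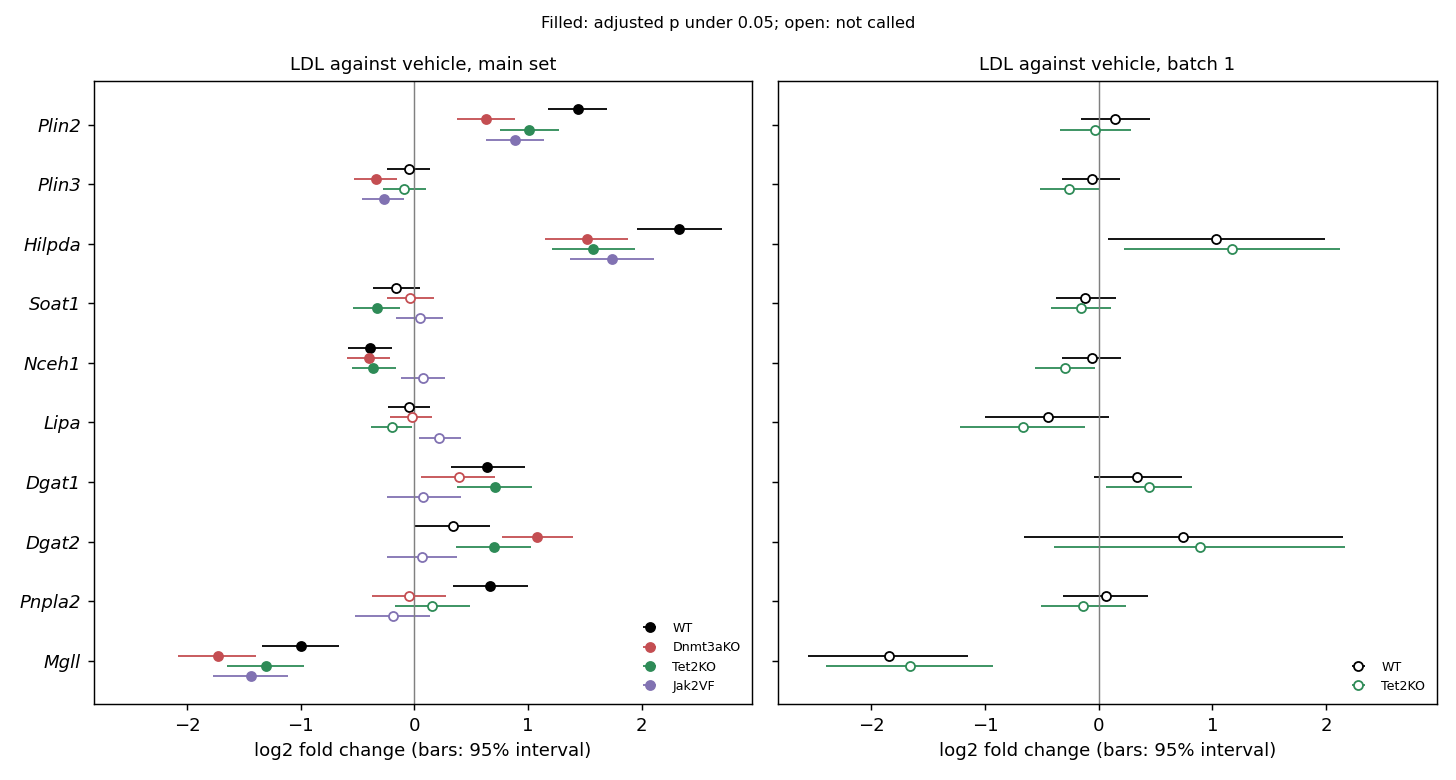
Log2 fold change of LDL against vehicle for each of the 10 genes in the 4 genotypes of the main set, with 95% intervals; filled points passed an adjusted p of 0.05. In the main set Plin2 and Hilpda lie to the right of 0 and Mgll to the left in every genotype, while Lipa has no filled point. In batch 1 no point is filled, and the Plin2 intervals of both genotypes hold 0.

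The second comparison asked how each genotype differed from WT without LDL. In Dnmt3aKO macrophages with vehicle, 5 of the 10 genes were higher and none lower, while 5.58% of all genes tested were higher. Plin2 at 1038 to 1149 CPM against 550 to 679 had a log2 fold change of 0.86 ± 0.12 (adjusted p = 4.8e-05). Hilpda at 79.9 to 88.9 CPM against 23.2 to 35.8 had 1.48 ± 0.18 (adjusted p = 4.8e-06). For both droplet surface genes the lowest Dnmt3aKO library lay above the highest WT library. Lipa, at 693, 602 and 627 CPM against 487, 481 and 521, was higher by 0.37 ± 0.09 (adjusted p = 0.00730), a call lost without Dnmt3aKO replicate 1 (0.31, adjusted p = 0.0522). Pnpla2, at 66.1, 75.7 and 71.3 CPM against 54.2, 43.0 and 41.4, was higher by 0.62 ± 0.16 (adjusted p = 0.0111), a call lost without WT replicate 2 or 3 (adjusted p = 0.0561 and 0.0670) or Dnmt3aKO replicate 2 (0.0507). Mgll was higher by 0.52 ± 0.15 (adjusted p = 0.0302), and this call was lost without WT replicate 1, 2 or 3 (adjusted p = 0.0851, 0.111 and 0.0575), without Dnmt3aKO replicate 1 or 2 (0.110 and 0.0812), and with no filter on low counts (0.0508). The median log2 fold change of the 10 genes was 0.34, beside -0.00 over all genes, and the neutrophil and macrophage marker sums were higher in the same libraries.

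Jak2VF macrophages with vehicle differed from WT in both directions, with 3 members higher and 3 lower, against 4.29% and 5.26% of all genes. With library totals in place of composition scaling, higher genes were 58.7% of all those called, against 45.0%. Lipa, at 305, 324 and 336 CPM against 487, 481 and 521, had a log2 fold change of -0.62 ± 0.09 (adjusted p = 1.1e-04), or 1.54-fold lower. Nceh1, at 148, 158 and 167 CPM against 200, 217 and 231, had -0.45 ± 0.09 (adjusted p = 0.00317). Soat1, at 227, 230 and 263 CPM against 281, 298 and 327, had -0.33 ± 0.10 (adjusted p = 0.0369). The Soat1 call was lost without WT replicate 2 or 3 (adjusted p = 0.111 and 0.183), without Jak2VF replicate 1 or 2 (0.179 and 0.178), with library totals in place of composition scaling (0.143), and with no filter on low counts (0.0682). Dgat1 was at 39.9, 32.7 and 26.3 CPM against 23.2, 21.5 and 19.7 (0.62 ± 0.16, adjusted p = 0.0146), a call lost without WT replicate 3 (0.0776) or Jak2VF replicate 1 (0.0960). Dgat2 was at 9.20, 8.27 and 6.84 CPM against 5.35, 4.41 and 4.75 (0.75 ± 0.15, adjusted p = 0.00335). Mgll was at 8.72, 12.1 and 11.0 CPM against 5.87, 5.68 and 6.29 (0.83 ± 0.15, adjusted p = 0.00137). These 6 genes are the ones called, and their libraries did not overlap between the genotypes. The share of all genes without such overlap is not given here, so this adds nothing to the calls. Plin2 was not called (0.28, adjusted p = 0.179), but was without Jak2VF replicate 3 (0.40, adjusted p = 0.0374). The stromal marker sum was at 14477 to 18379 CPM in these Jak2VF libraries and 12222 to 13299 in WT, and the neutrophil sum differed as given above. Of the pathway genes listed beside the members, 0 of 8 for cholesteryl ester and endosomal cholesterol handling were called in this comparison, 0 of 13 for glycerolipid synthesis were higher and 1 lower, and 1 of 9 for lipolysis was higher and 1 lower, with medians of -0.16, -0.11 and -0.03.

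Tet2KO macrophages with vehicle differed from WT in 1 member, Mgll, which was higher by 0.54 ± 0.16 (adjusted p = 0.0454) at 6.77, 9.92 and 9.27 CPM against 5.87, 5.68 and 6.29; 2.76% of all genes were higher. The call was lost without WT replicate 1, 2 or 3 (adjusted p = 0.128, 0.153 and 0.0809), without Tet2KO replicate 2 or 3 (0.231 and 0.159), and with no filter on low counts (0.0980); Tet2KO replicate 2 is the library with the high hepatocyte sum. The other 9 members had log2 fold changes of -0.20 (Plin3) to 0.31 (Hilpda).

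**Figure D3:**
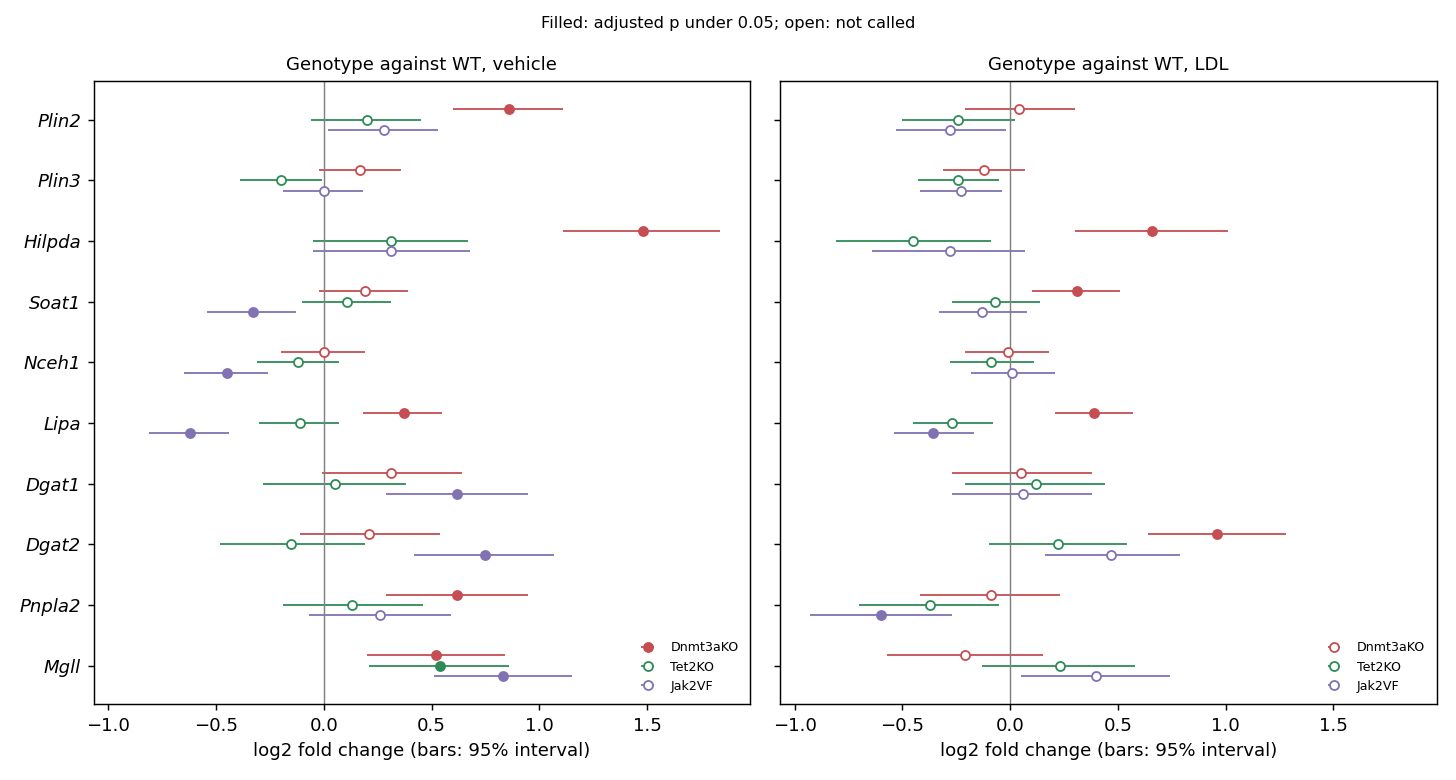
Log2 fold change of each genotype against WT for the 10 genes in the main set, with vehicle and with LDL, with 95% intervals; filled points passed an adjusted p of 0.05. Plin2 is higher in Dnmt3aKO with vehicle (0.86) but not called with LDL (0.04), while Lipa is higher in Dnmt3aKO and lower in Jak2VF under both treatments.

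The genotypes were then compared with WT in the presence of LDL. In Dnmt3aKO 4 members were higher and none lower, while 8.01% of all genes were higher. Dgat2, at 11.3, 14.2 and 10.1 CPM against 7.46, 5.13 and 5.77, had a log2 fold change of 0.96 ± 0.15 (adjusted p = 1.6e-04), or 1.94-fold. Hilpda, at 217, 262 and 255 CPM against 181, 130 and 154, had 0.66 ± 0.17 (adjusted p = 0.0116). Lipa, at 631, 649 and 610 CPM against 412, 496 and 535, had 0.39 ± 0.09 (adjusted p = 0.00437). The libraries of these genes did not overlap between the genotypes, which adds nothing to the calls without the share over all genes. Without Dnmt3aKO LDL replicates 1 and 2, the libraries with adipocyte transcripts, 1 Dnmt3aKO LDL library is left and the spread comes from the other groups; Hilpda was then at 0.73 (adjusted p = 0.0813) and Lipa at 0.36 (adjusted p = 0.117). Soat1, at 344, 332 and 329 CPM against 230, 293 and 290, was higher by 0.31 ± 0.10 (adjusted p = 0.0382). Its call was lost without WT replicate 1 (adjusted p = 0.194), without Dnmt3aKO replicate 1, 2 or 3 (0.0923, 0.0680 and 0.0741), with library totals in place of composition scaling (0.0871), and with no filter on low counts (0.0910). Plin2, higher in Dnmt3aKO with vehicle, had 0.04 with LDL, with an interval of -0.21 to 0.30.

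In Jak2VF with LDL 2 members were lower and none higher, while 5.75% of all genes were lower. Higher genes were 42.3% of all those called, and 58.4% with library totals in place of composition scaling. Lipa, at 388, 363 and 375 CPM against 412, 496 and 535, had a log2 fold change of -0.36 ± 0.09 (adjusted p = 0.0153). This call was lost without WT replicate 3 (-0.27, adjusted p = 0.0825), the library with Gfap, without Jak2VF replicate 3 (-0.36, adjusted p = 0.0649), and with library totals in place of composition scaling (-0.27, adjusted p = 0.0884). Pnpla2, at 46.5, 52.3 and 46.6 CPM against 92.2, 62.6 and 65.3, had -0.60 ± 0.16 (adjusted p = 0.0209), a call lost without WT replicate 1 (-0.40, adjusted p = 0.166) or Jak2VF replicate 1 or 3 (adjusted p = 0.0879 and 0.0929). Dgat2 lay just short of the threshold (0.47, adjusted p = 0.0525), and was called without WT replicate 1 (0.64, adjusted p = 0.0255), with library totals in place of composition scaling (0.57, adjusted p = 0.0136), with DESeq2 (0.48, adjusted p = 0.0233) or its size factors in edgeR (0.0475), and with the title or the description number as replicate block (0.0322 and 0.0360). Plin3 was not called (-0.23, adjusted p = 0.105), but was without WT replicate 2 (-0.29, adjusted p = 0.0361). The stromal marker sum was at 12547 to 13452 CPM in these Jak2VF libraries and 10113 to 12310 in WT, and the macrophage and neutrophil sums were apart as given above.

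In Tet2KO with LDL no member differed from WT by edgeR's test, and 2.76% of all genes did in either direction. At an unadjusted p under 0.05 there were 4 members and 2371 of all 19444 genes, and DESeq2 called 0 members and 748 genes. The members furthest from 0 were Hilpda (-0.45, adjusted p = 0.226), Pnpla2 (-0.37, adjusted p = 0.314) and Lipa (-0.27, adjusted p = 0.135); Lipa was called without WT replicate 1 (-0.37, adjusted p = 0.0182).

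Whether the LDL response itself differed between genotypes was tested as an interaction. The LDL effect on Plin2 was smaller in Dnmt3aKO than in WT, with a difference in log2 fold change of -0.81 ± 0.17 (interval -1.17 to -0.45, adjusted p = 0.0391); this was 1 of the 10 members, and 0.242% of all genes had a lower effect. The group values behind it are the higher vehicle level and the overlapping LDL level given above. The size changed little when single libraries were left out, but the call was lost without any 1 of the 12 libraries except WT vehicle replicate 1 and WT LDL replicate 2, with values of -0.73 to -0.85 and adjusted p-values of 0.0704 to 0.142. It was also lost without both Dnmt3aKO LDL libraries with adipocyte transcripts (-0.81, adjusted p = 0.249), which left 1 library in that group. Differences of similar size in Hilpda (-0.82, adjusted p = 0.136), Dgat2 (0.74, adjusted p = 0.130), Mgll (-0.73, adjusted p = 0.168) and Pnpla2 (-0.71, adjusted p = 0.158) were not called by edgeR. DESeq2 called Hilpda (-0.80, adjusted p = 0.0492) and Dgat2 (0.76, adjusted p = 0.0345), and 458 of all genes against 84 by edgeR. Hilpda was also called without WT LDL replicate 2 (-0.91, adjusted p = 0.0448) and with no filter on low counts (-0.83, adjusted p = 0.0130), and Pnpla2 also with no filter (-0.73, adjusted p = 0.0412).

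In Jak2VF the LDL effect on Pnpla2 was lower than in WT, with a difference of -0.86 ± 0.22 (interval -1.32 to -0.40, adjusted p = 0.0461); this was again 1 of the 10 members, and 0.962% of all genes had a lower effect. Pnpla2 was higher in the 3 LDL libraries of WT than in its 3 vehicle libraries, and was at 46.5 to 52.3 CPM with LDL in Jak2VF, where vehicle libraries ran from 46.1 to 63.4. The call was lost without WT vehicle replicate 2 or 3, WT LDL replicate 1 or 3, Jak2VF vehicle replicate 1 or 2, or Jak2VF LDL replicate 1 or 3, with values of -0.68 to -0.94 and adjusted p-values of 0.0542 to 0.149. Nceh1, which fell with LDL in WT, had a difference of 0.47 ± 0.13 (adjusted p = 0.0593), and Plin2 one of -0.56 ± 0.17 (adjusted p = 0.0761). Both were called by DESeq2 (adjusted p = 0.0163 and 0.0260), which called 1807 of all genes against 480 by edgeR. Both were also called without WT vehicle replicate 1 (adjusted p = 0.0351 and 0.0353), WT LDL replicate 2 (0.0129 and 0.0215), Jak2VF vehicle replicate 3 (0.0316 and 0.0231) or Jak2VF LDL replicate 2 (0.0484 and 0.0454). Hilpda (-0.59, adjusted p = 0.136) and Dgat1 (-0.56, adjusted p = 0.127) were called without WT LDL replicate 2 (adjusted p = 0.0491 and 0.0400) or Jak2VF vehicle replicate 3 (0.0439 and 0.0397). In Tet2KO no member's LDL effect was called different from that in WT, with 3 members and 1428 of all genes at an unadjusted p under 0.05, and 0 members and 154 genes by DESeq2; 0.103% of all genes were called in either direction, 40.0% of them higher, or 25.0% with library totals. All interactions with WT share the same WT libraries.

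Batch 1 held WT and Tet2KO groups in a separate table and was tested by itself. No gene passed edgeR's test for LDL in WT, 0% of the 15481 tested. At an unadjusted p under 0.05 there were 707 genes, 2 of them members, and DESeq2 called 74 genes, 1 of them a member (Mgll, -1.84, adjusted p = 6.1e-06). For LDL in Tet2KO the share was likewise 0%, with 1126 genes and 6 members at an unadjusted p under 0.05 and 196 genes by DESeq2, 1 of them a member (Mgll, -1.66, adjusted p = 8.7e-05). Mgll in WT was at 67.9, 102 and 78.5 CPM with vehicle and 20.7 and 24.9 with LDL, a log2 fold change of -1.85 ± 0.31 by edgeR (adjusted p = 0.243). In Tet2KO it was at 24.6, 18.1 and 11.6 CPM with vehicle and 6.71 and 4.68 with LDL (-1.66 ± 0.32, adjusted p = 0.179). In both genotypes the LDL libraries lay below all vehicle libraries.

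Plin2, which LDL raised in all 4 genotypes of the main set, was at 4202, 3911 and 3755 CPM with vehicle and 4558 and 4177 with LDL in batch 1 WT, a log2 fold change of 0.14 with an interval of -0.16 to 0.45. In batch 1 Tet2KO it was at 3107, 3537 and 2729 CPM with vehicle and 3302 and 2817 with LDL (-0.03, interval -0.34 to 0.28). Both intervals lie below the values of the main set in the same genotypes, 1.44 and 1.01; the difference between the sets was not tested, since the tables were made separately. Hilpda in batch 1 WT was at 161, 67.8 and 87.4 CPM with vehicle and 288 and 144 with LDL (1.03 ± 0.42, adjusted p = 1.000). In batch 1 Tet2KO it was at 51.7, 104 and 102 CPM with vehicle and 183 and 204 with LDL (1.17 ± 0.42, adjusted p = 0.524). Both intervals, 0.08 to 1.99 and 0.22 to 2.12, lay above 0, but WT libraries overlapped between treatments. Lipa was at 1894, 2077 and 1867 CPM with vehicle and 1235 and 1605 with LDL in batch 1 WT. In batch 1 Tet2KO it was at 1735, 1239 and 966 CPM with vehicle and 954 and 695 with LDL. It was called in neither genotype. Its vehicle and LDL libraries overlapped in neither, as for 3 of the 10 members in WT and 5 in Tet2KO. With 3 libraries against 2, and the share over all genes not given, this shows no fall of Lipa.

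Between genotypes of batch 1, 1 member was lower in Tet2KO with vehicle, Mgll, with a log2 fold change of -2.19 ± 0.27 (adjusted p = 0.00517), or 4.57-fold lower, while 1.16% of all genes were lower. Higher genes were 38.7% of those called, and 53.2% with library totals. In the main set the same comparison gave 0.54, so the direction differed between the sets. The macrophage sum was lower in these Tet2KO libraries, and the whole-gene Tet2 counts are given above; in batch 1 they overlapped those of WT. Mgll was called in batch 1 also with each library left out in turn. At an unadjusted p under 0.05 there were 6 members and 2163 of all genes with vehicle. DESeq2 called 2 members and 685 genes there, with Soat1 (-0.38, adjusted p = 0.0151) beside Mgll. With LDL Mgll was again the 1 member called lower in Tet2KO by edgeR (-2.00 ± 0.35, adjusted p = 0.0480), while 0.291% of all genes were lower. Higher genes were 45.8% of those called, and 57.5% with library totals. This second call was lost without WT LDL replicate 1 or 2 (adjusted p = 0.104 and 0.219), Tet2KO LDL replicate 1 or 2 (0.159 and 0.359), each of which leaves 1 library in a group, both Tet2KO libraries with more stromal transcripts (-1.78, adjusted p = 0.0829), and with library totals in place of composition scaling (-1.93, adjusted p = 0.0514). At an unadjusted p under 0.05 there were 7 members and 1844 of all genes with LDL. DESeq2 called 2 members and 398 genes there, with Plin3 (-0.53, adjusted p = 0.0237) beside Mgll. Lipa was at 1894, 2077 and 1867 CPM in WT with vehicle and 1735, 1239 and 966 in Tet2KO (-0.57, adjusted p = 0.281). No gene's LDL effect was called different between the genotypes in batch 1, 0% of those tested, with 236 genes and 0 members at an unadjusted p under 0.05 and 4 genes and 0 members by DESeq2.

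**Figure D4:**
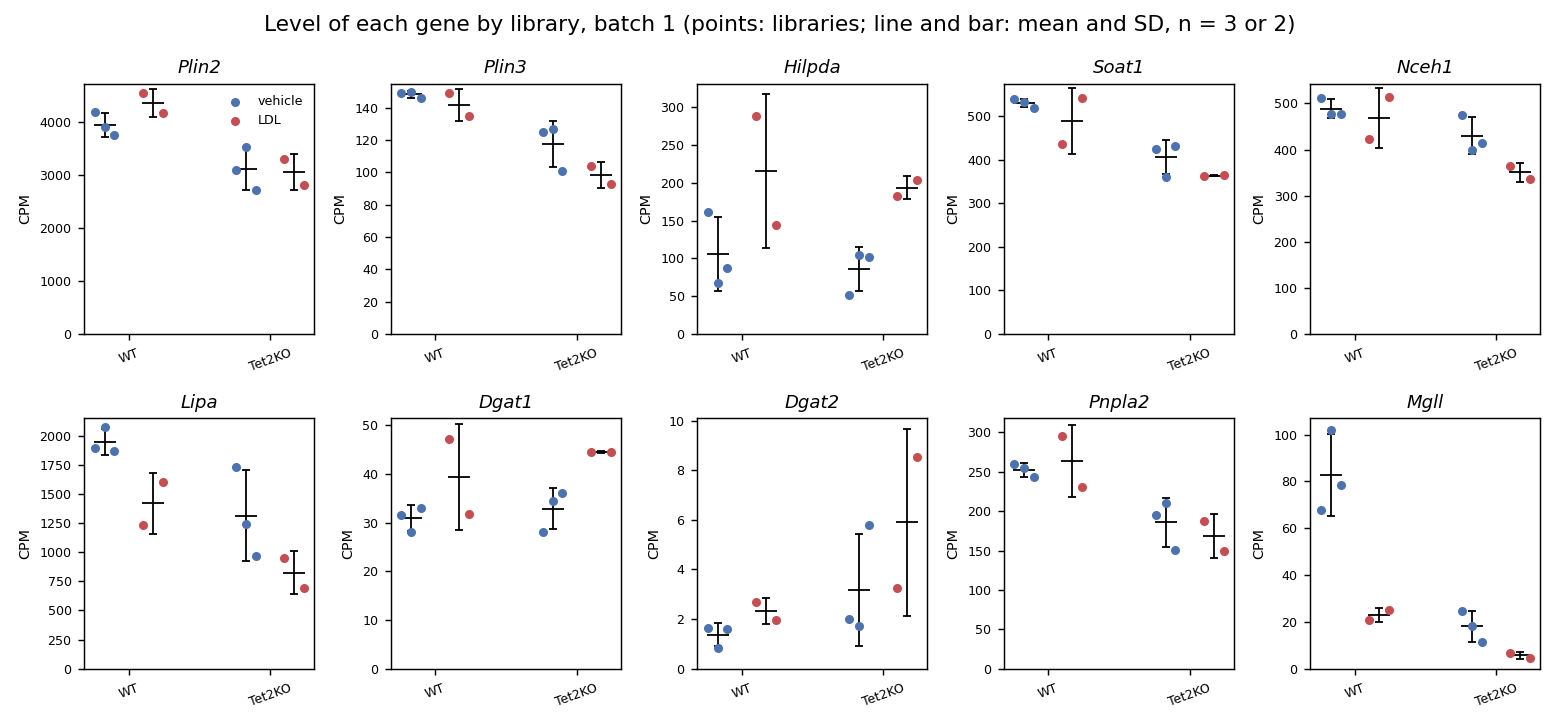
CPM of each of the 10 genes in the 10 libraries of batch 1, by genotype, with vehicle and LDL side by side; points are libraries, the line and bar the mean and SD (n = 3 with vehicle, 2 with LDL). Mgll is lower with LDL and lower in Tet2KO than in WT with vehicle, while Plin2 stays between 2729 and 4558 CPM.

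Other genes of the pathway were taken from 5 lists. Over all genes tested, 6.41% to 8.59% rose and 7.58% to 9.72% fell with LDL in the 4 genotypes. Of 10 tested genes of 16 listed for droplet coat and formation, 0 rose and 1 fell with LDL in WT, 2 rose and 1 fell in Dnmt3aKO, 1 rose and 0 fell in Tet2KO, and 2 rose and 1 fell in Jak2VF, with median log2 fold changes of 0.15, -0.00, 0.02 and -0.09. Fitm2, which helps droplets to bud from the endoplasmic reticulum, rose in Dnmt3aKO (0.31), Tet2KO (0.32) and Jak2VF (0.30, adjusted p = 0.0173, 0.0168 and 0.0215), and was at 0.12 in WT (adjusted p = 0.429). Of 13 tested genes of 15 listed for acyl chain activation and glycerolipid synthesis, 3 rose and 2 fell in WT, 2 and 2 in Dnmt3aKO, 3 and 2 in Tet2KO, and 4 and 2 in Jak2VF, with medians of 0.18, 0.10, 0.20 and 0.12. Within this list the lipins, which turn phosphatidate into diglyceride, moved in opposite directions. Lpin2 rose in every genotype, from 223 ± 11.2 CPM (SD, n = 3) to 570 ± 75.8 in WT (1.35 ± 0.12, adjusted p = 3.5e-08), and Lpin1 fell in every genotype, from 23.0 ± 3.20 to 13.7 ± 2.41 CPM in WT (-0.75 ± 0.16, adjusted p = 0.00179). Among the acyl-CoA synthetases, Acsl3 fell in all 4 genotypes (-0.85 in WT, -0.75 in Dnmt3aKO, -0.67 in Tet2KO and -0.63 in Jak2VF), while Acsl4 rose in Dnmt3aKO (0.87), Tet2KO (0.77) and Jak2VF (1.03) and was at 0.18 in WT (adjusted p = 0.470).

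Of 9 other lipolysis genes tested of 10 listed, 2 rose and 1 fell in WT, 0 and 1 in Dnmt3aKO, 1 and 0 in Tet2KO, and 2 and 1 in Jak2VF, with medians of -0.18, 0.10, -0.17 and 0.06. Abhd6, a second monoglyceride lipase, rose from 3.33 ± 0.401 to 5.40 ± 0.739 CPM in WT (0.70, adjusted p = 0.00121), by 0.57 in Tet2KO and by 0.39 in Jak2VF (adjusted p = 0.00582 and 0.0478), and was at 0.32 in Dnmt3aKO (adjusted p = 0.150). Of 8 other tested genes of 9 listed for cholesteryl ester and endosomal cholesterol handling, 0 rose in any genotype, and 2 fell in WT, 1 in Dnmt3aKO, 2 in Tet2KO and 1 in Jak2VF, with medians of 0.04, -0.17, -0.02 and -0.15. Stard4, a sterol carrier, fell in every genotype, from 71.0 ± 11.6 to 20.1 ± 3.51 CPM in WT (-1.82 ± 0.13, adjusted p = 3.1e-09). Of 11 factors known to act on these genes, 2 rose and 1 fell in WT and in Dnmt3aKO, and 2 rose and 2 fell in Tet2KO and in Jak2VF, with medians of 0.10, -0.03, 0.08 and 0.09. Hif1a, a subunit of the hypoxia-inducible factor, rose in all 4 (0.39 in WT, 0.75 in Dnmt3aKO, 0.50 in Tet2KO and 0.51 in Jak2VF). Nr1h3, the oxysterol receptor LXR alpha, rose in WT (0.60), Dnmt3aKO (0.48) and Tet2KO (0.41) and was at 0.27 in Jak2VF (adjusted p = 0.178). Pparg, a lipid-sensing nuclear receptor, was scarce and fell in all 4, from 4.52 ± 0.328 to 3.30 ± 0.325 CPM in WT (-0.45, adjusted p = 0.0281).

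Between genotypes, Jak2VF against WT had 1 of the 11 factors higher and 3 lower with vehicle, against 4.29% and 5.26% of all genes. The counts were the same with LDL, where 819 of all 19444 genes were higher and 1119 lower. In the other lists 0 to 2 genes were called in each direction in each genotype and treatment. Over the same comparisons 249 to 1557 of all 19444 genes were higher and 288 to 1840 lower. With vehicle, G0s2, an inhibitor of the lipase made by Pnpla2, was higher in Dnmt3aKO at 1.23 ± 0.338 against 0.545 ± 0.0720 CPM (1.16 ± 0.34, adjusted p = 0.0299), and Pparg was higher there by 0.49 (adjusted p = 0.0162). Lpl, lipoprotein lipase, was lower than the WT level of 195 ± 5.92 CPM in Tet2KO (114 ± 21.4, -0.78, adjusted p = 0.00607) and in Jak2VF (92.3 ± 23.7, -1.08, adjusted p = 2.9e-04). Pparg was lower in Jak2VF (-0.69, adjusted p = 0.00236) and Lpin2 higher in Tet2KO by 0.55 (adjusted p = 0.00419). With LDL, Lpl was higher in Dnmt3aKO at 232 ± 21.5 against 121 ± 21.7 CPM (0.93, adjusted p = 5.7e-04). Plin1, an adipocyte perilipin, was higher there by 2.19 (adjusted p = 0.00769) at 1.10 ± 0.687 CPM, and is itself one of the adipocyte markers that stood out in Dnmt3aKO LDL replicates 1 and 2. Jak2VF had less Pparg (-0.77, adjusted p = 0.00190) and Plin4 (-1.61, adjusted p = 0.0196), and Tet2KO less Abhd12 (-0.49, adjusted p = 0.0178). In batch 1, 1 gene of all 5 lists was called in any comparison, Abhd5, the activator of the lipase made by Pnpla2, which was lower in Tet2KO with vehicle at 43.3 ± 3.19 against 63.7 ± 3.29 CPM (-0.56, adjusted p = 0.0169). In that comparison 1.16% of the 15481 genes tested were lower.

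Genes with a pattern like that of a member were found by the root mean square difference between centred log2 CPM over the 24 libraries of the main set, among 9818 genes with a mean of at least 10 CPM. For Plin2 these were Srgn, C130050O18Rik and Syn1, each with a difference of 0.17, where the root mean square of Plin2 itself was 0.57. For Hilpda they were Mmp8 (0.24), Arg1 (0.26) and Prdx6 (0.28), against 1.05 for Hilpda itself. Mmp8 is also one of the 12 neutrophil markers. For Mgll they were Csrp2 (0.32), Cyp51 (0.36), which codes for an enzyme of cholesterol synthesis, and Dkk3 (0.36), against 0.75. For Dgat1 they were Timp1 (0.14), S100a11 (0.14) and Sra1 (0.15), against 0.33, and for Dgat2 Stx11 (0.25), Sdc1 (0.26) and Tuba4a (0.26), against 0.46. For Nceh1 they were March8 (0.08), 4931406C07Rik (0.09) and Isoc1 (0.09), against 0.21, and for Plin3 Sirt2, Necap2 and Rftn1, each 0.07, against 0.17. Libraries share their treatment and genotype groups, so likeness here is a description.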

How the data were processed

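The deposited tables hold whole-number counts per gene, which the authors made from reads on mm10, per the submitters' processing notes; the sources used here do not give the aligner, the counter or the use of strand. The file names call the tables normalized, but totals differ between libraries and the values behave as unscaled counts. The labels name both Ribo-Zero and poly-A selection. The deposited counts were tested with edgeR 4.0.16 (R 4.3.3): composition scaling (TMM), 1 mean per group, all libraries of a set in 1 fit, a filter for low genes (10 counts or more in 3 libraries, or 2 for batch 1), the quasi-likelihood test, and Benjamini-Hochberg adjustment over 19444 or 15481 genes. SE was taken from the F statistic. The scripts were tested on simulated counts with known changes in well-covered genes of the WT LDL libraries. In the main set 54% of 1.5-fold and 92% of 2-fold changes were called, and in batch 1 11% and 69%. False calls were 7.01% of those made in the main set and 2.44% in batch 1. Alternatives were DESeq2 1.42.0, its size factors, library totals, no filter, only the groups compared, replicate blocks and leaving out libraries. The genes named were all members, listed pathway genes called in at least 3 of 4 LDL comparisons, the 2 with the largest called change per genotype comparison, and the 3 most like each member called in at least 2 LDL comparisons. The members and lists were chosen with earlier results of these data known. Leaving out libraries with adipocyte or stromal transcripts was added after seeing the data. Gene positions are from GENCODE on GRCm38.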

Additional observations from a re-analysis of the deposited data

Results flagged for a closer look

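The LDL effect on Plin2 was smaller in Dnmt3aKO than in WT by an interaction test (-0.81 on the log2 scale, adjusted p = 0.0391 by edgeR), with Plin2 raised by LDL in both genotypes. The LDL effect on Pnpla2 was lower in Jak2VF than in WT by the same test (-0.86, adjusted p = 0.0461). Both interaction calls were lost when most of the single libraries were left out in turn, as given above. Mgll differed between Tet2KO and WT with vehicle in opposite directions in the 2 sets, at 0.54 in the main set and -2.19 in batch 1, with every Tet2KO library above every WT library in the first and below in the second. The main set call of Mgll (adjusted p = 0.0454 by edgeR) was also lost without most single libraries, while the batch 1 call held without each. The difference between the sets was not tested. The WT vehicle level of Mgll was 5.68 to 6.29 CPM in the main set and 67.9 to 102 CPM in batch 1, and the summed stromal markers were 12222 to 13299 and 477 to 817 CPM in the same libraries; their part in the difference was not tested. Tet2 over the whole gene was at 32.8 to 38.6 CPM in Tet2KO and 19.9 to 32.2 in WT in the main set, and at 16.8 to 24.3 and 24.1 to 27.9 in batch 1.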

How the results depend on the processing

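Of 2810 member results under the alternatives, 2651 kept their direction and side of the threshold, 119 lost and 40 gained a call; no called value changed sign. With DESeq2, members called were 3 for the Dnmt3aKO interaction and 3 for the Jak2VF interaction (458 and 1807 of all genes, against 84 and 480 by edgeR), and, in batch 1, 1 for LDL in WT, 1 for LDL in Tet2KO, 2 for Tet2KO against WT with vehicle and 2 with LDL (74, 196, 685 and 398 of all genes). With no filter they were 0 for Tet2KO against WT with vehicle, 3 for the Dnmt3aKO and 2 for the Jak2VF interaction. With only the groups compared they were 3 for LDL in WT, 0 for Tet2KO against WT with vehicle, 2 for Dnmt3aKO and 0 for Jak2VF against WT with LDL, 0 for the Jak2VF interaction and 0 for batch 1 Tet2KO against WT with LDL. With library totals that last count was 0, and without both stromal-rich libraries 0. The fit of only the groups compared lost the LDL calls of Nceh1, Dgat1 and Pnpla2 in WT. It also lost those of Soat1 and Nceh1 in Tet2KO and of Plin3 in Jak2VF. Against WT with vehicle it lost Soat1 and Dgat1 in Jak2VF. With LDL it lost Soat1 and Lipa in Dnmt3aKO, and Lipa and Pnpla2 in Jak2VF. It gained Dgat1 for LDL in Dnmt3aKO and for Dnmt3aKO against WT with vehicle. Without WT LDL 3 and Tet2KO LDL 3, where Gfap was higher but the summed brain markers did not stand apart, Jak2VF against WT with LDL had 1, and the Dnmt3aKO and Jak2VF interactions 0 and 0. Without both Dnmt3aKO LDL libraries with adipocyte transcripts, Dnmt3aKO against WT with LDL had 1 and its interaction 0, with 1 library left in that group.

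Same-numbered libraries of the main set did not deviate together throughout (r from -0.227 to 0.402 by title number and -0.429 to 0.402 by description number), so the numbers were not taken as pairs. In batch 1, r by title number ran from -0.492 to 0.452. The 2 LDL libraries of a genotype there deviate from their mean by exact opposites, so these r values do not decide on pairs. With the title number as replicate block, the Jak2VF interaction had 2 members and batch 1 Tet2KO against WT with LDL 0. With the title number within genotype as replicate block the Jak2VF interaction had 3. With the description number as replicate block the Dnmt3aKO interaction had 0 and the Jak2VF interaction 2. With the description number within genotype as replicate block, which leaves 4 residual degrees of freedom, LDL had 2 members in WT, 3 in Dnmt3aKO and 3 in Tet2KO, and the Dnmt3aKO and Jak2VF interactions 0 and 0.

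Leaving out 1 library at a time gave 3 to 6 members for LDL in WT, 5 to 6 in Dnmt3aKO, 5 to 7 in Tet2KO and 3 to 4 in Jak2VF; 3 to 5 for Dnmt3aKO, 0 to 1 for Tet2KO and 4 to 7 for Jak2VF against WT with vehicle; 3 to 4, 0 to 1 and 0 to 3 with LDL; and 0 to 2 for the Dnmt3aKO, 0 to 0 for the Tet2KO and 0 to 5 for the Jak2VF interaction. In batch 1 the counts were 1 to 1 for Tet2KO against WT with vehicle and 0 to 0 with LDL. Counts over all genes moved too: over the alternatives LDL called 597 to 3937 genes in WT (2770 as reported), 867 to 5542 in Dnmt3aKO (2988), 712 to 4087 in Tet2KO (3267) and 543 to 5035 in Jak2VF (3532). Against WT with vehicle the ranges were 643 to 1388 in Tet2KO (1064) and 724 to 2249 in Jak2VF (1857), and with LDL 1080 to 5658 in Dnmt3aKO (3397), 38 to 840 in Tet2KO (537) and 264 to 4487 in Jak2VF (1938). The interactions ran from 0 to 731 (84), 0 to 154 (20) and 0 to 3628 (480), and batch 1 Tet2KO against WT from 70 to 685 (292) with vehicle and 1 to 398 (83) with LDL. Where the cause of a change is not given by the fewer libraries, it was not tested.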
